A study of Arabidopsis thaliana with 12 samples.

Results

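The WRKY transcription factors of Arabidopsis thaliana were followed in seedlings infiltrated with the potassium ionophore valinomycin, with Pseudomonas syringae pv. tomato DC3000, a bacterial leaf pathogen, or with both. The family was taken as 54 listed WRKY loci, and its members were those with a row in the deposited expression table. That left 47 of the 54 loci, among 20233 genes in all. WRKY30, WRKY36, WRKY38, WRKY41, WRKY51, WRKY55 and WRKY71 were not analysed here. No value in the table was 0, so genes silent in any library may have no row. The members, and the genes of the other lists below, may thus be selected for expression in every group, which was not tested. By the usual subgroups, 10 members belonged to group I, 3 to IIa, 6 to IIb, 10 to IIc, 6 to IId, 8 to IIe and 4 to III. The RefSeq annotation carried the WRKY name for all 54 loci. In the coding sequences, 10 members held the WRKY heptad more than once, which is the mark of group I, and 37 held it 1 time.

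The seedlings were 2 to 3 weeks old and were vacuum-infiltrated. The groups were 10 μM valinomycin with DC3000, 10 μM valinomycin alone, DC3000 alone and mock, with 3 libraries each, all taken 6 h after infiltration and labelled as leaf. The labels name no ecotype, no mutant or transgene, and no bacterial dose. They do not say that replicates came from separate plants, so the p-values measure the spread between these libraries only, which may be technical. Levels are read as FPKM, fragment counts scaled to the transcript's length and the library's total. The unit was inferred from the values, and levels of different genes are set side by side on that reading only. A gene was called higher or lower at a limma adjusted p under 0.05, on the log2(FPKM + 1) scale. That scale understates the change of genes at low levels, and each ± after a log2 change is its SE.

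WRKY proteins are plant transcription factors named for a conserved stretch of amino acids in their DNA-binding domain, which is held in shape by a zinc finger. They bind the W-box, a short element read as TTGACC or TTGACT, and many WRKY genes carry W-boxes upstream of themselves, so that the family forms a network of mutual and self control. In leaves the family is best known from immunity: microbial patterns sensed at the cell surface start a MAP kinase cascade that phosphorylates some WRKY proteins, VQ motif proteins bind others, and different members either promote or restrain defence. Other members act in senescence, heat, phosphate supply, trichomes and the seed coat.

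The 250 bases upstream of the annotated gene start are shown for WRKY40 and WRKY33, for the member with the largest called rise with both treatments over valinomycin alone (WRKY45), for the one called lower with DC3000 (WRKY22), and for the one called lower with valinomycin (WRKY44). They were read from the RefSeq TAIR10.1 genome, 5′ to 3′ on the strand of the gene, with W-boxes of either strand in capitals. AGTCAA and GGTCAA are W-boxes on the opposite strand. WRKY33 lies at chr2:16107985-16108234 on the plus strand, WRKY40 at chr1:30383311-30383560 on the plus strand, WRKY22 at chr4:524250-524499 on the minus strand, WRKY45 at chr3:327413-327662 on the minus strand and WRKY44 at chr2:15644561-15644810 on the plus strand.
WRKY33: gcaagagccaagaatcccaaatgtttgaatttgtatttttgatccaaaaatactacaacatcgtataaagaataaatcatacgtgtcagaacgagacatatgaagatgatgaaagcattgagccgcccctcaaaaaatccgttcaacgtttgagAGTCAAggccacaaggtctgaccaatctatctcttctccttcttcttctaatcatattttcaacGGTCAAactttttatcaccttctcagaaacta
WRKY40: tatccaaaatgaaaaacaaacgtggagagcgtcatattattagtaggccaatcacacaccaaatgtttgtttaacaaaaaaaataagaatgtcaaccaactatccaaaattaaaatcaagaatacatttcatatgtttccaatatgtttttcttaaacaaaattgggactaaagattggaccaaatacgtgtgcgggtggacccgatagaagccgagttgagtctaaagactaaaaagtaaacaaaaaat
WRKY22: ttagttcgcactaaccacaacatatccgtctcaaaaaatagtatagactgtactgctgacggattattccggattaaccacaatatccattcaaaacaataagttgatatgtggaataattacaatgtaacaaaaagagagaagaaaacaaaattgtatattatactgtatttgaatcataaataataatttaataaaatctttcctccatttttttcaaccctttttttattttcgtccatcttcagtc
WRKY45: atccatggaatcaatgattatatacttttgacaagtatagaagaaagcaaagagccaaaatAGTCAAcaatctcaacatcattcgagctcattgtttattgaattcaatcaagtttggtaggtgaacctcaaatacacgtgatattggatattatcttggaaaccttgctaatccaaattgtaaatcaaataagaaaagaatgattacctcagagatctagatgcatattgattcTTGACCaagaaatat
WRKY44: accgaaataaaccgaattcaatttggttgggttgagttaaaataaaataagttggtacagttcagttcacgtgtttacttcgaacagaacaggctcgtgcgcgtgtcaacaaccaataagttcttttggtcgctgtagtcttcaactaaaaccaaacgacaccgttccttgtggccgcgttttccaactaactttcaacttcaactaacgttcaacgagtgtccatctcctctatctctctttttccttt
WRKY33 and WRKY45 held 2 W-boxes each in this window, and the other members shown held 0.

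Across the libraries, the deposited values summed to between 1057472 and 1350272 FPKM, and no value was 0. The number of reads behind them is unknown. Of the leaf mesophyll markers, 8 of 8 had values, and their summed level was 8504 to 9373 FPKM with both treatments, 12737 to 14896 FPKM with valinomycin, 11461 to 12743 FPKM with DC3000 and 22945 to 25465 FPKM in mock. Guard cell markers (7 of 7 with values) summed to 393 to 581 FPKM and vascular markers (7 of 7) to 52.3 to 73.9 FPKM over all libraries, with the groups overlapping. Markers of meristem and trichome (4 of 6) summed to 25.4 to 27.9 FPKM with both treatments and 30.1 to 34.4 FPKM with valinomycin. With DC3000 they summed to 19.7 to 22.6 FPKM, below every other group, and in mock to 24.2 to 36.7 FPKM. Of the root markers, 2 of 9 had values, WOX5 and CASP1. These summed to 0.587 to 0.919 FPKM with both treatments, 1.72 to 2.34 FPKM with valinomycin, 1.21 to 1.79 FPKM with DC3000 and 0.318 to 0.859 FPKM in mock. The clock gene LHY stood at 1.98 to 4.0 FPKM with both treatments, 3.70 to 17.3 FPKM with valinomycin, 0.880 to 2.11 FPKM with DC3000 and 206 to 303 FPKM in mock. The part of these shifts in the WRKY results was not tested. In bulk tissue, fewer cells of a type and less RNA per cell cannot be told apart.

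The family as a whole stood higher in every treated group than in mock. The summed level of the 47 members was 1057 ± 319 FPKM with both treatments, 1270 ± 552 FPKM with valinomycin, 439.6 ± 29.1 FPKM with DC3000 and 201 ± 26.1 FPKM in mock (SD, n = 3 each). Every treated library lay above the highest mock library, at 226 FPKM, and the lowest with both treatments (828 FPKM) and with valinomycin (694 FPKM) lay above the highest with DC3000 (471 FPKM). The libraries of the groups with both treatments and with valinomycin overlapped. A few members held a large share of each sum: the 5 highest held 53.3% of it with both treatments, 61.7% with valinomycin, 49.6% with DC3000 and 42.3% in mock.

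The highest members also differed by group. WRKY40, WRKY33, WRKY15, WRKY25 and WRKY11 led in that order with both treatments, and WRKY33, WRKY40, WRKY15, WRKY25 and WRKY11 with valinomycin. WRKY40, WRKY1, WRKY4, WRKY15 and WRKY11 led with DC3000, and WRKY15, WRKY1, WRKY11, WRKY4 and WRKY39 in mock. Adjacent members could lie within each other's spread. With valinomycin, WRKY33 averaged 246 ± 154 FPKM and WRKY40 169 ± 94.8 FPKM (SD, n = 3 each). The highest group mean was that of both treatments for 14 members, of valinomycin for 23, of DC3000 for 9 and of mock for 1, WRKY44.

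**Figure D1:**
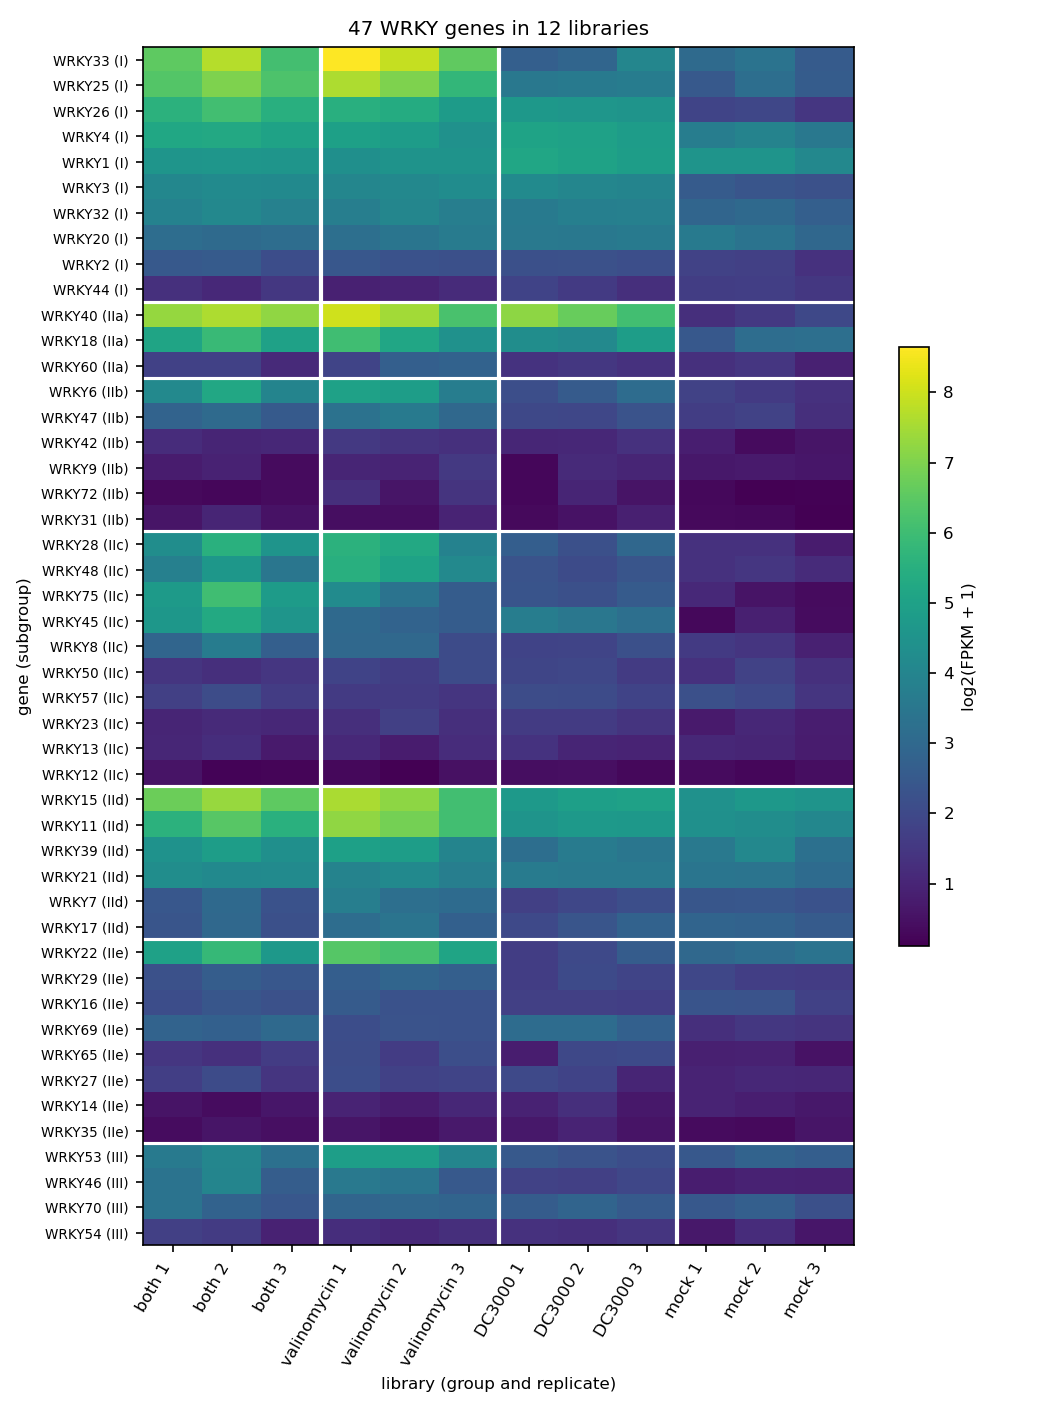
Level of the 47 WRKY genes (rows, by subgroup) in each of the 12 libraries (columns, by group and replicate), coloured by log2(FPKM + 1). WRKY33, WRKY25 and WRKY22 are bright in the 6 libraries with valinomycin and darker with DC3000 and in mock, while WRKY40 is bright in all 9 treated libraries.

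The libraries of a group did not respond to the same extent. Among the members raised by valinomycin, valinomycin replicate 3 was the lowest of its group in 24 of 31, and valinomycin replicate 1 the highest in 21. Among those raised by both treatments, replicate 2 of that group (both replicate 2) was the highest in 24 of 29 and both replicate 3 the lowest in 21. Calls not made without some single library are given below with the value without it.

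Of the 47 members, 41 averaged at least 1 FPKM over the 12 libraries and were tested. WRKY42 reached that level only through its highest group, valinomycin (mean 1.68 FPKM). Its calls in comparisons that use this group, and in the interaction, carry that limit. The other 6 members, WRKY9, WRKY12, WRKY14, WRKY31, WRKY35 and WRKY72, had values of 0.0820 to 1.88 FPKM in single libraries and were not tested. WRKY12 is known for secondary walls of the stem and flowering time, and WRKY72 for basal immunity to nematodes.

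Valinomycin alone raised most of the tested members. Of the 41 tested members, 31 were higher with valinomycin than in mock, 1 was lower and 9 were not called. Of all 18048 tested genes, 38.5% were higher and 13.8% lower in this comparison, and after median-of-ratios rescaling of the libraries these shares were 27.9% higher and 25.8% lower. The median log2 change was 1.01 over the tested members and 0.27 over all tested genes. Rescaling left 31 members higher and 2 lower, and changed the median over all genes to 0.03.

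In group I, 7 of 10 members rose with valinomycin and 1 fell. WRKY33 (AT2G38470), which activates the camalexin gene PAD3 in resistance to necrotrophic fungi and is phosphorylated by MPK3 and MPK6, had 90.7, 209 and 66.9 FPKM with both treatments, 402, 241 and 94.4 FPKM with valinomycin, 5.53, 6.5 and 15.2 FPKM with DC3000, and 7.33, 9.21 and 4.91 FPKM in mock. All 6 libraries with valinomycin lay above the 6 without it, and DC3000 and mock overlapped (log2 change 4.72 ± 0.49, limma adjusted p = 2.94e-06 for valinomycin against mock). WRKY25, a close relative of WRKY33 known from heat responses, had 81.9, 127 and 75.7 FPKM with both treatments, 195, 128 and 53.5 FPKM with valinomycin, 10.5, 11.4 and 11.9 FPKM with DC3000, and 4.71, 8.28 and 5.03 FPKM in mock. Here too the 6 libraries with valinomycin stood apart from the other 6 (log2 change 4.02 ± 0.35, limma adjusted p = 5.69e-07 for valinomycin against mock).

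WRKY26, the next relative in this clade and likewise known from heat, had 47.9, 65.8 and 43.9 FPKM with both treatments, 44.8, 40.2 and 27.0 FPKM with valinomycin, 24.6, 23.4 and 21.9 FPKM with DC3000, and 2.60, 2.85 and 1.77 FPKM in mock. It rose in all 3 treated groups without overlap with mock (log2 change 3.47 ± 0.20, limma adjusted p = 1.21e-08 for valinomycin). WRKY3 and WRKY4, related members with a role against necrotrophs, rose by 1.74 ± 0.14 and 1.00 ± 0.16 with valinomycin, WRKY32 by 1.00 ± 0.15 and WRKY2, which acts in abscisic acid responses of germinating seeds, by 0.69 ± 0.17. WRKY1 (0.075 ± 0.15) and WRKY20 (0.15 ± 0.17) were not called.

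WRKY44 (AT2G37260), also called TTG2, directs trichome and seed coat development and was the only member to fall with valinomycin. It had 1.44, 1.16 and 1.85 FPKM with both treatments, 0.872, 0.960 and 1.26 FPKM with valinomycin, 2.56, 1.96 and 1.41 FPKM with DC3000, and 2.19, 2.27 and 1.85 FPKM in mock. The valinomycin libraries lay below all mock libraries at low levels (log2 change -0.61 ± 0.17, limma adjusted p = 0.00904). DC3000 and both treatments each overlapped with mock.

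The IIa members WRKY40, WRKY18 and WRKY60 form complexes with each other and modulate immunity. WRKY40 (AT1G80840) had 158, 192 and 149.7 FPKM with both treatments, 262, 174 and 72.1 FPKM with valinomycin, 145, 100.3 and 66.0 FPKM with DC3000, and 1.41, 1.92 and 2.91 FPKM in mock. All 9 treated libraries lay above mock by a wide margin, and valinomycin and DC3000 overlapped (log2 change 5.63 ± 0.37, limma adjusted p = 4.04e-08 for valinomycin against mock). WRKY18 rose by 2.26 ± 0.35 and WRKY60 by 1.25 ± 0.25 with valinomycin (limma adjusted p = 0.000108 and 0.00073). Of the 3 tested IIb members, WRKY6, which acts in senescence and phosphate supply, rose by 2.96 ± 0.36, WRKY47 by 1.75 ± 0.20 and WRKY42, a regulator of phosphate transport, by 0.83 ± 0.16.

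In IIc, 6 of 9 tested members were higher with valinomycin. WRKY28, an activator of the salicylic acid gene ICS1, had 18.9, 44.9 and 22.04 FPKM with both treatments, 48.0, 37.5 and 13.8 FPKM with valinomycin, 5.31, 3.59 and 6.82 FPKM with DC3000, and 1.51, 1.504 and 0.709 FPKM in mock. It stood above mock in every treated library (log2 change 3.78 ± 0.39, limma adjusted p = 2.82e-06 for valinomycin against mock). WRKY48 (AT5G49520), a stress-induced repressor of basal defence against Pseudomonas syringae, had 13.3, 23.9 and 10.14 FPKM with both treatments, 44.2, 31.6 and 16.5 FPKM with valinomycin, 3.89, 3.22 and 4.17 FPKM with DC3000, and 1.52, 1.76 and 1.26 FPKM in mock. Again no treated library reached down to mock (log2 change 3.56 ± 0.31, limma adjusted p = 5.6e-07 for valinomycin).

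WRKY75 and WRKY45, known for phosphate uptake and, for WRKY75, for senescence, rose by 2.73 ± 0.38 and 2.29 ± 0.22 with valinomycin. WRKY8, known from salt and virus responses, rose by 1.39 ± 0.29. WRKY23, an auxin-linked root regulator, rose by 0.56 ± 0.17 (limma adjusted p = 0.012), a call not made without 1 library (limma adjusted p = 0.0751 without valinomycin replicate 2). WRKY50 (0.36 ± 0.18), WRKY13 (0.067 ± 0.19) and WRKY57 (-0.35 ± 0.20), known from low-oleate jasmonate signalling, stem cell walls and drought, were not called.

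The IId members WRKY11 and WRKY17, and their relative WRKY7, restrain basal resistance to Pseudomonas syringae. WRKY11 rose by 2.46 ± 0.27 and WRKY7 by 1.01 ± 0.21 with valinomycin, while WRKY17 was not called (0.35 ± 0.24). WRKY15, which acts in cell expansion and in osmotic and oxidative stress, rose by 2.38 ± 0.29, WRKY39, known from heat, by 0.96 ± 0.26, and WRKY21 by 0.66 ± 0.14.

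In IIe, WRKY22 and WRKY29 act downstream of the MAP kinase cascade that senses bacterial flagellin. WRKY22 (AT4G01250) had 30.9, 55.7 and 24.7 FPKM with both treatments, 84.1, 70.7 and 33.1 FPKM with valinomycin, 2.18, 3.04 and 5.12 FPKM with DC3000, and 7.004, 8.06 and 9.41 FPKM in mock. With valinomycin it stood above mock, and with DC3000 alone below it, in every library (log2 change 2.70 ± 0.34, limma adjusted p = 1.66e-05 for valinomycin against mock). WRKY29 rose by 1.00 ± 0.16, WRKY65 by 1.19 ± 0.27, WRKY27, known from bacterial wilt, by 0.91 ± 0.24 and WRKY69 by 0.85 ± 0.16. WRKY16, an immune receptor of the TIR-NBS-LRR kind that carries a WRKY domain, was not called (0.23 ± 0.17). In group III, WRKY46, a salicylic acid responsive gene, rose by 2.28 ± 0.30 and the senescence regulator WRKY53 by 1.94 ± 0.24. WRKY54 and WRKY70, which act together in salicylic acid signalling, were not called (0.37 ± 0.21 and 0.45 ± 0.21).

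**Figure D2:**
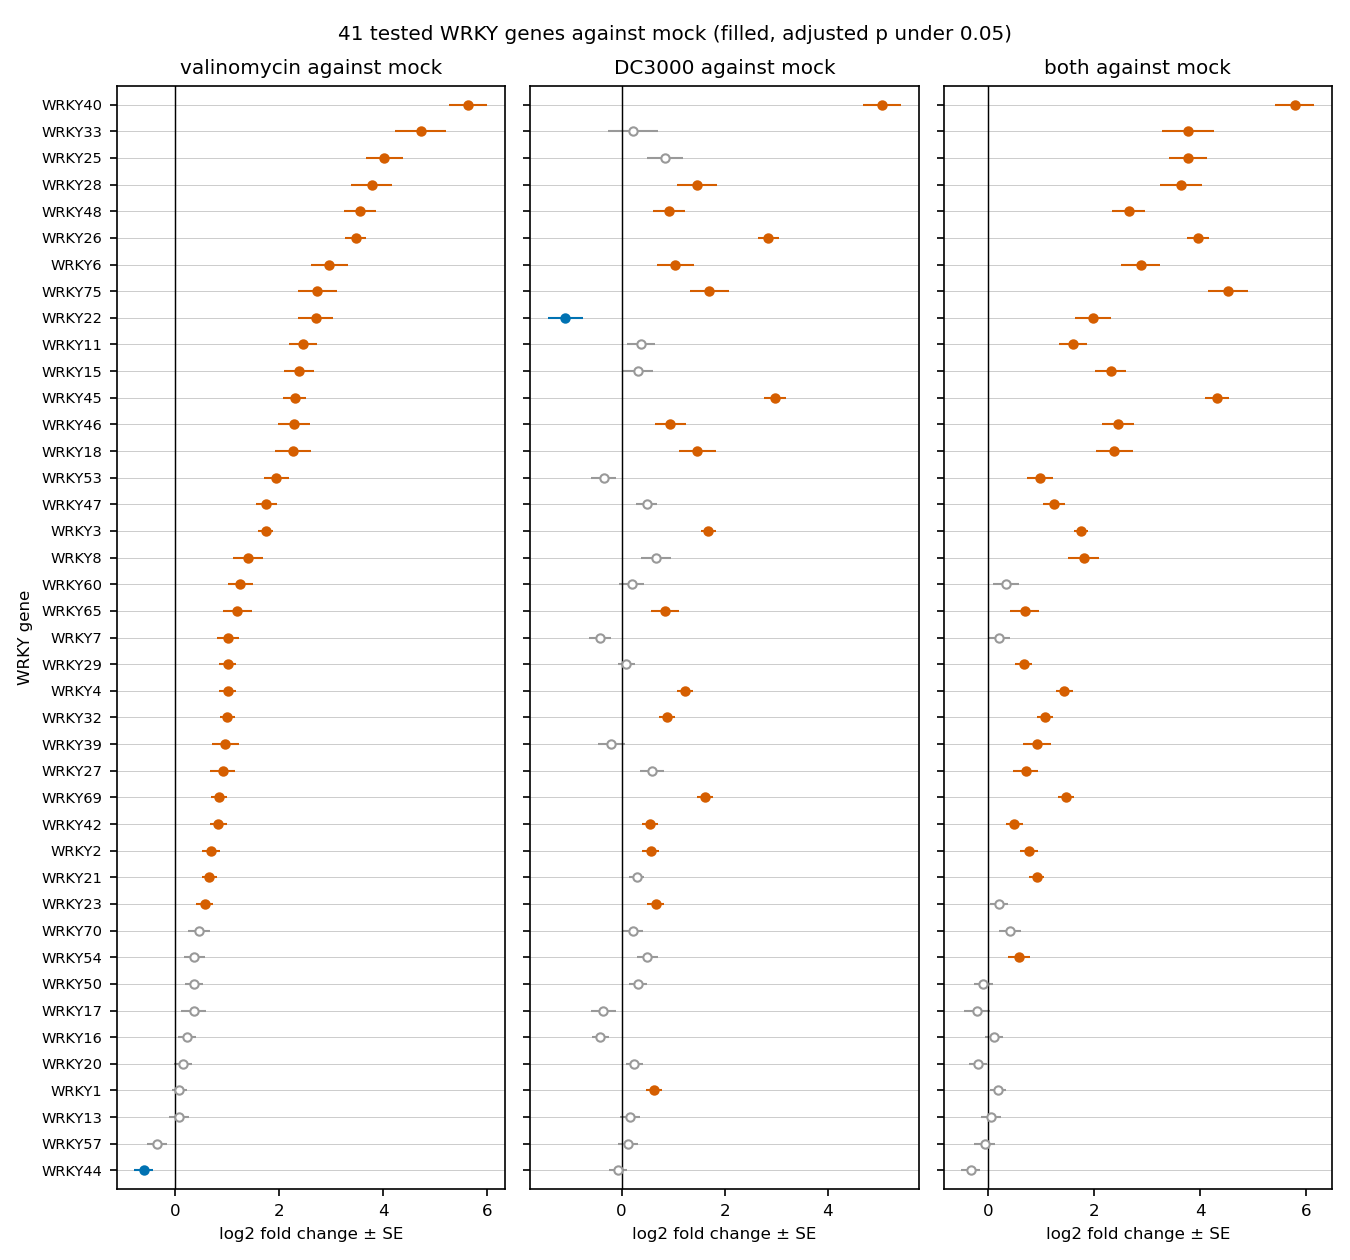
Log2 change (x axis, bars are the SE) of the 41 tested WRKY genes, ordered by the change with valinomycin, in each treated group against mock. Filled points passed a limma adjusted p under 0.05, orange for higher and blue for lower: 31 and 1 with valinomycin, 18 and 1 with DC3000, 29 and 0 with both treatments.

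DC3000 alone raised fewer members and lowered 1. Against mock, 18 of the 41 tested members were higher with DC3000, WRKY22 was lower and 22 were not called. Among all tested genes 31.6% were higher and 17.2% lower, or 25.9% higher and 27.4% lower after rescaling, when 16 members were higher and 3 lower. The median log2 change was 0.55 over the members and 0.18 over all tested genes.

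WRKY40, at the per-library levels given above, had the largest rise (log2 change 5.05 ± 0.37, limma adjusted p = 6.73e-08). WRKY45 (AT3G01970) had 23.9, 38.6 and 22.9 FPKM with both treatments, 7.18, 6.05 and 5.03 FPKM with valinomycin, 12.4, 10.4 and 8.36 FPKM with DC3000, and 0.229, 0.831 and 0.309 FPKM in mock. The 4 groups did not overlap at any point, and DC3000 stood between both treatments and valinomycin (log2 change 2.98 ± 0.22, limma adjusted p = 8.03e-08 for DC3000 against mock). WRKY26 rose by 2.85 ± 0.20 and WRKY75 by 1.70 ± 0.38. WRKY3 had 15.8, 17.2 and 17.1 FPKM with both treatments, 15.2, 16.04 and 18.2 FPKM with valinomycin, 17.5, 15.4 and 14.6 FPKM with DC3000, and 4.96, 4.13 and 3.69 FPKM in mock. Its 3 treated groups overlapped with each other and stood apart from mock, and the log2 change with DC3000 was 1.68 ± 0.14. WRKY69 had 6.09, 5.66 and 7.15 FPKM with both treatments, 3.42, 3.88 and 3.83 FPKM with valinomycin, 7.85, 7.83 and 5.68 FPKM with DC3000, and 1.43, 1.81 and 1.62 FPKM in mock. No treated library of WRKY69 fell within mock (log2 change 1.62 ± 0.16, limma adjusted p = 9.38e-07 for DC3000 against mock).

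WRKY22 was the only member called lower with DC3000 (log2 change -1.09 ± 0.34, limma adjusted p = 0.0159). It was not called when either of 2 libraries was left out (limma adjusted p = 0.073 without DC3000 replicate 1 and 0.0689 without mock replicate 3). WRKY33 changed by 0.22 ± 0.49 (limma adjusted p = 0.733) and WRKY25 by 0.84 ± 0.35 (limma adjusted p = 0.0602), neither called with DC3000. In WRKY33, DC3000 replicate 3 stood at 15.2 FPKM, above the other DC3000 libraries and above mock.

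By subgroup, 6 of 10 tested group I members were higher with DC3000, 2 of 3 in IIa, 2 of 3 in IIb, 5 of 9 in IIc, 0 of 6 in IId, 2 of 6 in IIe and 1 of 4 in III. The 6 IId members ranged from -0.41 to 0.38 in log2 change. The remaining called rises were WRKY18 (1.47 ± 0.35), WRKY28 (1.47 ± 0.39), WRKY4 (1.23 ± 0.16), WRKY6 (1.04 ± 0.36), WRKY46 (0.94 ± 0.30), WRKY48 (0.92 ± 0.31), WRKY32 (0.88 ± 0.15), WRKY65 (0.85 ± 0.27), WRKY23 (0.66 ± 0.17), WRKY1 (0.63 ± 0.15), WRKY2 (0.57 ± 0.17) and WRKY42 (0.55 ± 0.16).

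Some of these rises were not called with 1 library left out. The limma adjusted p of WRKY65 was then 0.0874 without DC3000 replicate 2, 0.084 without DC3000 replicate 3 and 0.0783 without mock replicate 3. That of WRKY46 was 0.0514 without DC3000 replicate 3, 0.0518 without mock replicate 1 and 0.0515 without mock replicate 3. That of WRKY6 was 0.0537 to 0.11 without DC3000 replicate 2 or 3 or mock replicate 2 or 3, and that of WRKY48 0.0537 to 0.0841 without DC3000 replicate 1 or 3 or mock replicate 1 or 3.

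With both treatments, 29 of the 41 tested members were higher than in mock, 0 were lower and 12 were not called. Over all tested genes 37.2% were higher and 23.1% lower, or 33.1% higher and 31.9% lower after rescaling, when 28 members were higher and 2 lower. The median log2 change was 0.98 over the members and 0.17 over all tested genes. This comparison and the ones above share the mock libraries.

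WRKY40 had the largest rise (log2 change 5.79 ± 0.37, limma adjusted p = 1.41e-08). WRKY75 (AT5G13080) was next and had 26.3, 64.1 and 27.0 FPKM with both treatments, 17.9, 9.29 and 4.999 FPKM with valinomycin, 4.05, 3.63 and 4.94 FPKM with DC3000, and 1.12, 0.484 and 0.279 FPKM in mock. Its 4 groups did not overlap, and all 3 libraries with both treatments were above every library with 1 treatment (log2 change 4.53 ± 0.38, limma adjusted p = 1.69e-07). WRKY45 rose by 4.32 ± 0.22 and WRKY26 by 3.96 ± 0.20. WRKY33, WRKY25 and WRKY28 rose by 3.78 ± 0.49, 3.77 ± 0.35 and 3.64 ± 0.39.

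Subgroup counts of higher members were 7 of 10 in group I, 2 of 3 in IIa, 3 of 3 in IIb, 5 of 9 in IIc, 4 of 6 in IId, 5 of 6 in IIe and 3 of 4 in III. WRKY54 was called here (log2 change 0.59 ± 0.21, limma adjusted p = 0.0249), and was not called without any 1 of several libraries (limma adjusted p = 0.0883 to 0.12 without both replicate 1 or 2 or mock replicate 1 or 3). WRKY60 (0.35 ± 0.25), WRKY7 (0.21 ± 0.21), WRKY23 (0.20 ± 0.17) and WRKY44 (-0.33 ± 0.17) were not called. Of the weaker rises, WRKY65 (0.70 ± 0.27), WRKY42 (0.50 ± 0.16) and WRKY27 (0.71 ± 0.24) also rested on single libraries. Their limma adjusted p values were 0.0566 to 0.135 without both replicate 1 or 3 or mock replicate 1, 2 or 3 for WRKY65, 0.0619 without both replicate 1 and 0.0691 without mock replicate 2 for WRKY42, and 0.0858 without both replicate 2 and 0.0504 without mock replicate 1 for WRKY27.

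**Figure D3:**
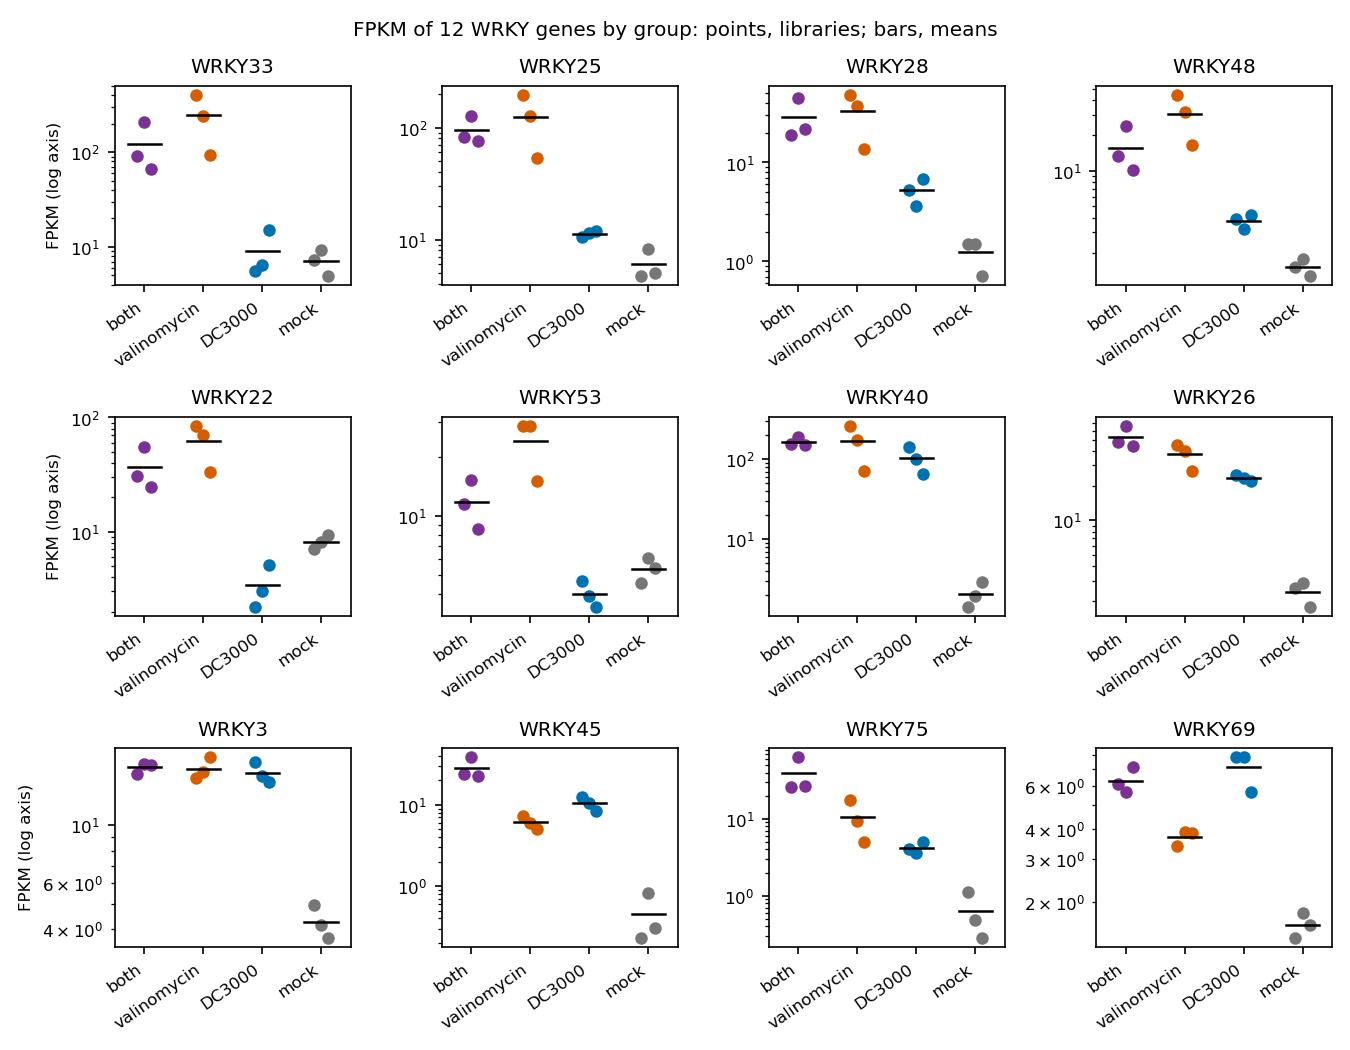
Level of 12 WRKY genes in single libraries (points) with the group mean (bar), on a log axis of FPKM, for both treatments, valinomycin, DC3000 and mock. WRKY33, WRKY25, WRKY28, WRKY48, WRKY22 and WRKY53 stand highest in the groups given valinomycin, WRKY40, WRKY26 and WRKY3 stand apart from mock in every treated group, and WRKY45 and WRKY75 are highest with both treatments.

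Valinomycin also raised members in the presence of the bacterium. Of the 41 tested members, 20 were higher with both treatments than with DC3000, 1 was lower and 20 were not called. Among all tested genes 14.1% were higher and 13.5% lower, or 18.7% higher and 17.3% lower after rescaling, when 20 members were higher and 3 lower. The median log2 change was 0.58 over the members and -0.056 over all tested genes. The largest rises were in WRKY33 (log2 change 3.56 ± 0.49, limma adjusted p = 0.000177), WRKY22 (log2 change 3.07 ± 0.34, limma adjusted p = 3.5e-05), WRKY25 (2.93 ± 0.35) and WRKY75 (2.83 ± 0.38). In each of these 4 genes, every library with both treatments lay above every DC3000 library.

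In IId, 5 of 6 members were higher with both treatments than with DC3000, among them WRKY15 (1.99 ± 0.29) and WRKY11 (1.22 ± 0.27). In IIc, WRKY28 (2.18 ± 0.39), WRKY48 (1.74 ± 0.31), WRKY45 (1.35 ± 0.22) and WRKY8 (1.13 ± 0.29) rose beside WRKY75. In group III, WRKY46 (1.51 ± 0.30) and WRKY53 (1.32 ± 0.24) rose, and in IIa 0 of 3 were called, with WRKY40 at 0.74 ± 0.37 (limma adjusted p = 0.151).

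WRKY1 was the member called lower. It had 22.5, 23.5 and 22.9 FPKM with both treatments, 19.9, 21.7 and 21.8 FPKM with valinomycin, 34.9, 31.4 and 28.4 FPKM with DC3000, and 22.2, 22.4 and 16 FPKM in mock. The DC3000 libraries lay above those of the other 3 groups (log2 change -0.44 ± 0.15, limma adjusted p = 0.0376 for both treatments against DC3000), but the call was not made without any 1 of several libraries (limma adjusted p = 0.0516 to 0.146 without both replicate 1, 2 or 3, valinomycin replicate 2 or DC3000 replicate 1 or 2). Weaker rises were also not called without some single library. Libraries outside the comparison do not enter its log2 change, only the spread and the adjusted p. The limma adjusted p of WRKY8 was 0.0556 without both replicate 2, and that of WRKY29 was 0.0811 without both replicate 2 and 0.0742 without DC3000 replicate 1. For WRKY47 it was 0.0694 without both replicate 2, 0.0517 without DC3000 replicate 1 and 0.056 without DC3000 replicate 2, for WRKY16 0.052 to 0.133 without both replicate 1, 2 or 3 or DC3000 replicate 1, 2 or 3, and for WRKY7 0.0539 to 0.218 without both replicate 1 or 2, valinomycin replicate 2, DC3000 replicate 1 or 2 or mock replicate 1 or 2.

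Adding the bacterium to valinomycin changed few members, at shares near those over all tested genes. With both treatments, WRKY45, WRKY75 and WRKY69 were higher than with valinomycin alone, WRKY53, WRKY60, WRKY11 and WRKY7 were lower, and 34 of the 41 were not called. Of the members, 7.32% were higher and 9.76% lower, beside 4.72% and 10.4% over all tested genes. After rescaling, 9.29% of all tested genes were higher and 10.0% lower, when 6 members were higher and 3 lower. The median log2 change was -0.068 over the members and -0.12 over all tested genes.

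WRKY45 rose by 2.03 ± 0.22 (limma adjusted p = 3.82e-05) and WRKY75 by 1.81 ± 0.38 (limma adjusted p = 0.00567), with every library with both treatments above every valinomycin library in both genes. WRKY69 rose by 0.63 ± 0.16 (limma adjusted p = 0.0148), a call not made without 1 library (limma adjusted p = 0.0728 without both replicate 3).

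WRKY53 had 11.5, 15.2 and 8.55 FPKM with both treatments, 28.7, 28.8 and 15.0 FPKM with valinomycin, 4.69, 3.89 and 3.42 FPKM with DC3000, and 4.55, 6.08 and 5.40 FPKM in mock. It stood highest with valinomycin, and both treatments overlapped with valinomycin at the edge (log2 change -0.96 ± 0.24, limma adjusted p = 0.0163 for both treatments against valinomycin). WRKY60 had 2.37, 2.41 and 1.204 FPKM with both treatments, 2.69, 5.43 and 6.04 FPKM with valinomycin, 1.59, 1.84 and 1.52 FPKM with DC3000, and 1.44, 1.74 and 0.846 FPKM in mock. Its libraries with both treatments lay below those with valinomycin and overlapped with DC3000 and mock (log2 change -0.91 ± 0.25, limma adjusted p = 0.0232).

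WRKY11 had 47.1, 85.8 and 45.7 FPKM with both treatments, 148, 116 and 65.6 FPKM with valinomycin, 22.4, 25.0 and 24.3 FPKM with DC3000, and 20.0, 18.8 and 15.7 FPKM in mock. Both treatments and valinomycin overlapped (log2 change -0.86 ± 0.27, limma adjusted p = 0.0438). WRKY7 had 4.34, 7.15 and 3.83 FPKM with both treatments, 12.5, 8.39 and 7.65 FPKM with valinomycin, 2.36, 2.82 and 3.51 FPKM with DC3000, and 4.27, 4.36 and 3.80 FPKM in mock, and here the groups with both treatments and with valinomycin did not overlap (log2 change -0.80 ± 0.21, limma adjusted p = 0.0225). Each of the 4 falls was lost when some single library was left out. The limma adjusted p of WRKY53 was 0.077 without both replicate 3 and 0.0722 without valinomycin replicate 2, that of WRKY60 was 0.105 without both replicate 3, 0.0867 without valinomycin replicate 2 and 0.0748 without valinomycin replicate 3, and that of WRKY7 was 0.0859 without both replicate 1, 0.1 without both replicate 3 and 0.0739 without valinomycin replicate 1. For WRKY11 it was 0.0515 to 0.157 without both replicate 1 or 3, valinomycin replicate 1 or 2, DC3000 replicate 1, 2 or 3 or mock replicate 1, 2 or 3. Without a DC3000 or mock library, which lie outside this comparison, the log2 change of WRKY11 stayed at -0.86. Without both replicate 3, WRKY45 and WRKY75 were the 2 calls made.

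Set directly against each other, the single treatments differed in many members. With valinomycin, 18 of the 41 were higher than with DC3000, 4 were lower and 19 were not called. Among the tested genes as a whole 17.9% were higher and 8.18% lower, or 18.9% higher and 14.2% lower after rescaling, when 17 members were higher and 5 lower. The median log2 change was 0.63 over the members and 0.064 over all tested genes. The largest differences were in WRKY33 (log2 change 4.51 ± 0.49, limma adjusted p = 9.81e-06), WRKY22 (log2 change 3.79 ± 0.34, limma adjusted p = 1.81e-06), WRKY25 (3.18 ± 0.35) and WRKY48 (2.64 ± 0.31). WRKY40, high with either treatment, differed by 0.59 ± 0.37 (limma adjusted p = 0.279).

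Members lower with valinomycin than with DC3000 were WRKY69 (log2 change -0.78 ± 0.16, limma adjusted p = 0.00162), WRKY45 (log2 change -0.68 ± 0.22, limma adjusted p = 0.035), WRKY1 (log2 change -0.55 ± 0.15, limma adjusted p = 0.0107) and WRKY44 (log2 change -0.54 ± 0.17, limma adjusted p = 0.0346). The groups did not overlap in any of the 4, whose per-library levels are given above. With 1 library left out, the limma adjusted p of WRKY1 was 0.0605 without DC3000 replicate 1. It was 0.0848 to 0.144 without valinomycin replicate 2 or 3 or DC3000 replicate 1 or 2 for WRKY45, and 0.0846 to 0.166 without valinomycin replicate 1 or 2 or DC3000 replicate 1 or 2 for WRKY44. Among the higher members, that of WRKY16 was 0.0601 without valinomycin replicate 1, that of WRKY26 was 0.0625 to 0.133 without valinomycin replicate 1 or 2 or DC3000 replicate 1, 2 or 3, and that of WRKY17 was 0.0523 to 0.195 without both replicate 1, valinomycin replicate 1 or 2, DC3000 replicate 1 or 2 or mock replicate 1, 2 or 3.

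**Figure D4:**
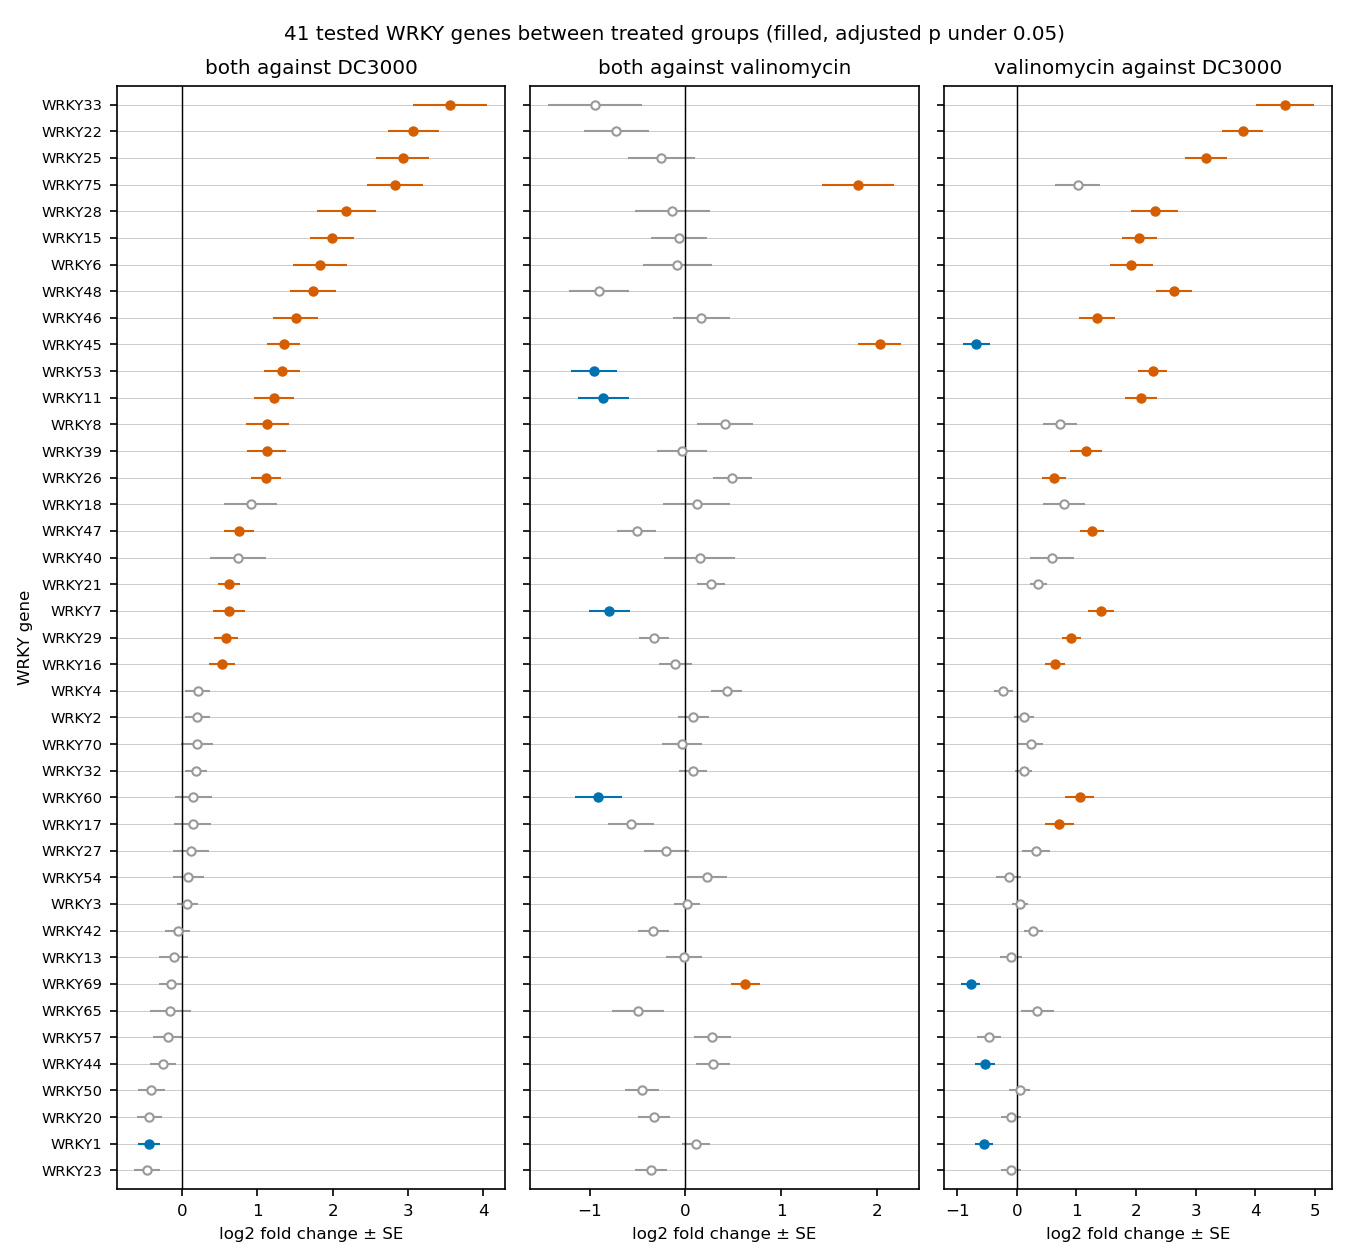
Log2 change (x axis, bars are the SE) of the 41 tested WRKY genes, ordered by both treatments against DC3000, in the 3 comparisons between treated groups. Filled points passed a limma adjusted p under 0.05, orange for higher and blue for lower: 20 and 1 for both treatments against DC3000, 3 and 4 for both treatments against valinomycin, 18 and 4 for valinomycin against DC3000.

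The interaction asked whether the log2 change that valinomycin brought in bacteria-treated seedlings differed from the change it brought in mock-treated ones. It was called in 16 of the 41 members, below 0 in all 16, and above 0 in 0. Over all tested genes it was called above 0 in 5.25% and below 0 in 19.4%, or above 0 in 13.0% and below 0 in 12.9% after rescaling, when it was below 0 in 10 members and above 0 in 0. The median interaction was -0.77 over the members and -0.29 over all tested genes.

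WRKY40 had the value farthest from 0 (-4.89 ± 0.52, limma adjusted p = 1.88e-05). Valinomycin changed it by 0.74 ± 0.37 in seedlings with DC3000, and by 5.63 ± 0.37 in seedlings without it. WRKY26 (-2.36 ± 0.28), WRKY48 (-1.82 ± 0.44) and WRKY3 (-1.67 ± 0.20) followed. In WRKY3, valinomycin changed the level by 0.070 ± 0.14 with DC3000 present and by 1.74 ± 0.14 without it. WRKY33 (-1.16 ± 0.69, limma adjusted p = 0.233), WRKY25 (-1.09 ± 0.50), WRKY75 (0.10 ± 0.53) and WRKY22 (0.37 ± 0.48) were not called. Of the 16 calls, 8 were made in every alternative setting: WRKY40, WRKY26, WRKY48, WRKY3, WRKY23, WRKY69, WRKY42 and WRKY32. Of these, WRKY42 passed the filter only through its level with valinomycin, a group that enters the interaction.

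VQ motif proteins bind WRKY factors and tune their activity. Of 34 listed VQ genes, 22 had a row and 20 were tested. VQ27 and VQ25 reached the filter level only through their highest groups. These were both treatments for VQ27 (mean 2.19 FPKM) and mock for VQ25 (mean 1.51 FPKM). Counts and medians of the list in comparisons that use these groups carry that limit. With valinomycin 14 were higher than in mock and 0 lower, with DC3000 3 were higher and 3 lower, and with both treatments 9 were higher and 1 lower than with DC3000. Their median log2 changes in these comparisons were 1.14, 0.13 and 0.66, beside 0.27, 0.18 and -0.056 over all tested genes. Of all tested genes, 38.5% were higher and 13.8% lower with valinomycin, 31.6% higher and 17.2% lower with DC3000, and 14.1% higher and 13.5% lower with both treatments than with DC3000, so the share of VQ genes higher with DC3000 was below that of all genes and the share lower was near it. VQ12, which restrains resistance to the grey mould Botrytis, had 152, 288 and 116 FPKM with both treatments, 332, 231 and 62.0 FPKM with valinomycin, 22.01, 17.1 and 49.4 FPKM with DC3000, and 2.11, 4.88 and 3.34 FPKM in mock. Every treated library stood above mock (log2 change 5.30 ± 0.52, limma adjusted p = 1.86e-06 for valinomycin against mock, and 2.68 ± 0.52 for DC3000). SIB1, which binds and activates WRKY33, rose by 2.52 ± 0.29 with valinomycin and was 1.88 ± 0.29 higher with both treatments than with DC3000. VQ22, a jasmonate-linked member, rose by 2.14 ± 0.23 with valinomycin and by 2.81 ± 0.23 with DC3000, and VQ1 by 1.78 ± 0.24 with valinomycin. With DC3000, VQ15 (-1.20 ± 0.27) and VQ24 (-0.82 ± 0.24) were lower than in mock.

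Of 12 kinase genes of the MAP kinase cascades upstream, 11 were tested. Valinomycin raised 7 and lowered 0, DC3000 raised 2 and lowered 2, and with both treatments 5 were higher and 0 lower than with DC3000. Their medians in the same comparisons were 0.65, 0.24 and 0.47. Over all tested genes, 38.5% rose and 13.8% fell with valinomycin and 31.6% rose and 17.2% fell with DC3000, and 14.1% were higher and 13.5% lower with both treatments than with DC3000. The DC3000 counts of this list thus lay near or below the shares over all genes. MPK11, a close relative of the immune kinase MPK4, had 8.74, 17.0 and 7.16 FPKM with both treatments, 17.6, 16.9 and 4.24 FPKM with valinomycin, 0.270, 0.244 and 0.767 FPKM with DC3000, and 0.207, 0.0451 and 0.245 FPKM in mock. It was high in the libraries with valinomycin (log2 change 3.37 ± 0.40, limma adjusted p = 9.46e-06 against mock). The kinase kinase MKK9 rose by 2.55 ± 0.30 with valinomycin and by 2.57 ± 0.30 with DC3000. MKK1 rose by 1.12 ± 0.17 with valinomycin. MPK3, which phosphorylates WRKY33, fell by 1.03 ± 0.19 with DC3000 and was 1.09 ± 0.19 higher with both treatments than with DC3000.

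Genes reported elsewhere as bound or regulated by WRKY factors were also followed. Of 18 listed, 13 had a row and 12 were tested. Valinomycin raised 9 and lowered 2, DC3000 raised 3 and lowered 2, and 8 were higher and 1 lower with both treatments than with DC3000. The medians were 2.07, 0.29 and 1.46. Set beside the shares over all tested genes, 38.5% higher and 13.8% lower with valinomycin, 31.6% and 17.2% with DC3000, and 14.1% and 13.5% with both treatments against DC3000, the DC3000 counts of this list lay near the general shares. PAD3, the camalexin synthesis gene controlled by WRKY33, had 32.0, 59.3 and 26.5 FPKM with both treatments, 24.3, 25.6 and 12.1 FPKM with valinomycin, 0.722, 0.744 and 1.21 FPKM with DC3000, and 0.282, 0.165 and 0.185 FPKM in mock. Like WRKY33, it was high in the 6 libraries with valinomycin (log2 change 4.10 ± 0.29, limma adjusted p = 7.04e-08 for valinomycin against mock, and 0.64 ± 0.29, limma adjusted p = 0.0794, for DC3000). Unlike in WRKY33, its libraries with both treatments all lay above those with valinomycin alone, but narrowly at the edge (26.5 against 25.6 FPKM). PAD3 was not called higher with both treatments than with valinomycin. CYP71A13, another camalexin gene of the list, overlapped between all groups. It had 3.83, 4.67 and 2.49 FPKM with both treatments, 2.57, 1.70 and 13.0 FPKM with valinomycin, 0.523, 1.91 and 2.57 FPKM with DC3000, and 3.71, 2.41 and 2.37 FPKM in mock. The ethylene synthesis genes ACS2 and ACS6, further reported targets of WRKY33, rose by 3.22 ± 0.38 and 2.57 ± 0.48 with valinomycin. AOX1A, the alternative oxidase gene that WRKY40 represses, rose by 5.40 ± 0.32 with valinomycin and by 1.52 ± 0.32 with DC3000.

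FRK1, a flagellin-induced kinase gene reported downstream of WRKY22 and WRKY29, rose by 2.63 ± 0.28 with valinomycin and by 0.83 ± 0.28 with DC3000.  NCED3, the abscisic acid synthesis gene, rose by 1.65 ± 0.27 with valinomycin and by 2.24 ± 0.27 with DC3000. EDS1, a regulator of the salicylic acid pathway, fell by 0.55 ± 0.14 with valinomycin and by 1.11 ± 0.14 with DC3000. ICS1, an enzyme of that pathway, fell by 0.42 ± 0.15 with valinomycin and by 0.46 ± 0.15 with DC3000. Other salicylic acid genes of the list went the other way with valinomycin. NPR1 averaged 14.7 ± 3.52 FPKM with valinomycin, 7.14 ± 0.26 FPKM with DC3000 and 5.59 ± 0.435 FPKM in mock. CBP60G averaged 16.3 ± 5.42 FPKM with valinomycin, 2.90 ± 0.58 FPKM with DC3000 and 3.73 ± 0.676 FPKM in mock (SD, n = 3 each).

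W-boxes were counted in the 500 bases upstream of the annotated gene start by searching for TTGACC and TTGACT on both strands. The pair differ in their last base and cannot overlap at the same place on the same strand. At least 1 was present in 25 of the 47 members, or 53.2%, against 45.2% of 27443 protein-coding genes, and 2 or more in 8 members (17.0%), against 14.9%. The G-box CACGTG, a palindrome searched in the same windows, was present in 6 members (12.8%), against 9.35% of all these genes. WRKY33, WRKY45, WRKY11 and WRKY17 held 3 W-boxes each, WRKY22 held 1, and WRKY40 and WRKY44 held 0.

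By response to valinomycin, a W-box was present in 17 of the 31 members that rose, in 0 of the 1 that fell and in 4 of the 9 not called. By response to DC3000, it was present in 8 of the 18 that rose, in 1 of the 1 that fell and in 12 of the 22 not called. A match describes letters in this window only. It is neither a bound site nor a cause.

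**Figure D5:**
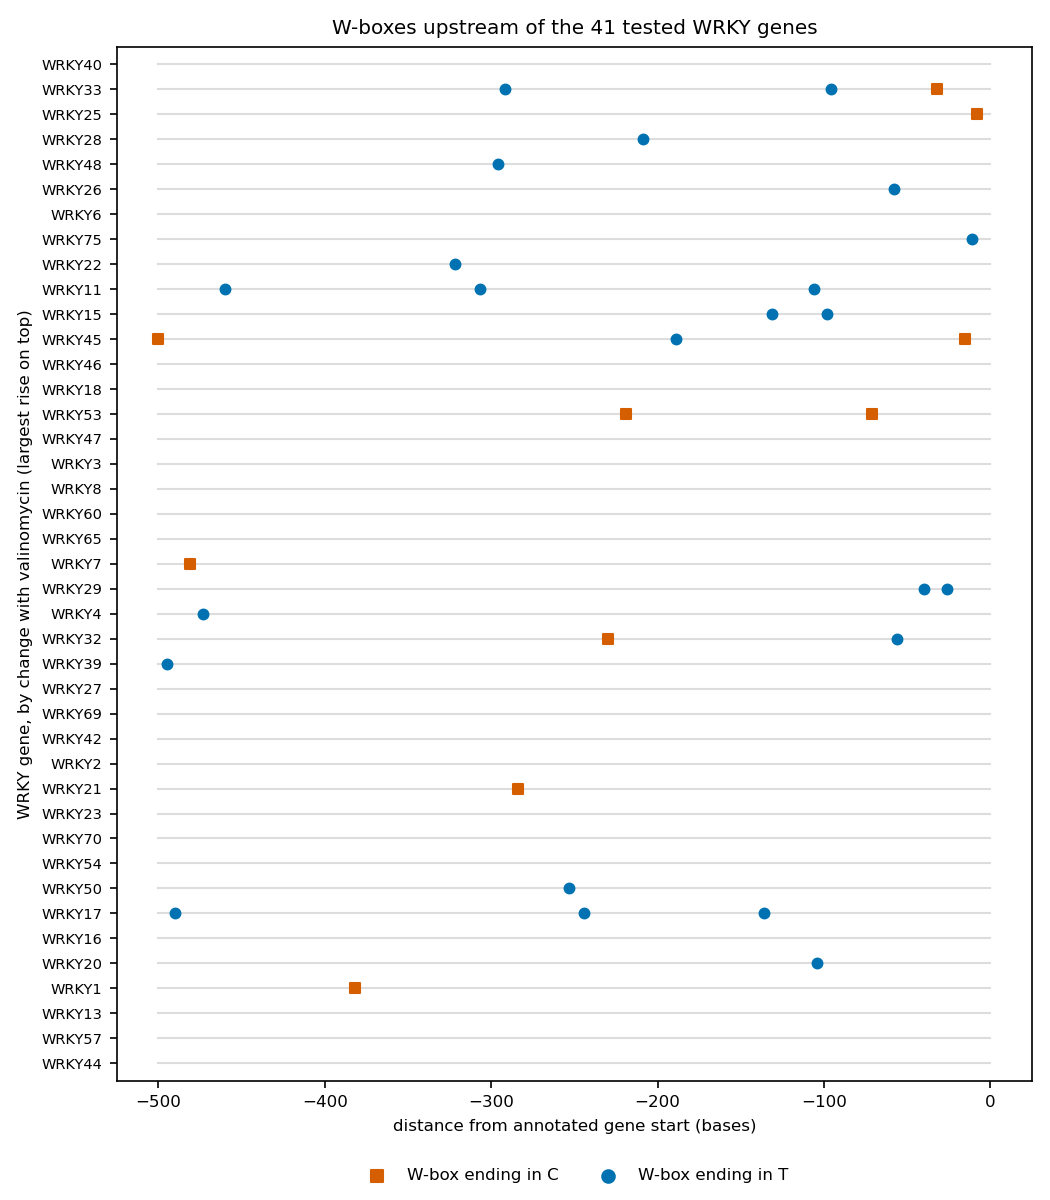
Position of W-boxes in the 500 bases before the annotated gene start (x axis, distance in bases) of the 41 tested WRKY genes, ordered from the largest rise with valinomycin at the top to the fall of WRKY44 at the bottom. Squares end in C and circles in T, and genes with and without W-boxes are found from top to bottom.

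Reads could also be shared with other genes. No member had a transcript copy elsewhere at 95% identity over 50% of its length, and 0 overlapped exons of another gene on the same strand. Exons of 9 members, WRKY1, WRKY2, WRKY4, WRKY9, WRKY29, WRKY33, WRKY40, WRKY53 and WRKY69, overlapped a gene on the opposite strand, and no source used here says whether counting used strand, so such reads cannot be told apart. Opposite WRKY33, AT2G38480 averaged 3.14 ± 0.97 FPKM with both treatments, 5.95 ± 3.26 FPKM with valinomycin, 2.41 ± 0.53 FPKM with DC3000 and 12.1 ± 2.58 FPKM in mock (SD, n = 3 each). Opposite WRKY40, AT1G80850 averaged at most 5.78 ± 2.22 FPKM, with valinomycin. These levels lay far below those of WRKY33 and WRKY40 in the groups where they rose. In mock, however, the gene opposite was the higher of the pair for WRKY33 and for WRKY40. There, WRKY33 averaged 7.15 ± 2.15 FPKM, WRKY40 2.08 ± 0.765 FPKM and AT1G80850 3.91 ± 0.456 FPKM. The gene opposite was the higher of the pair in every group for WRKY2, WRKY9, WRKY53 and WRKY69. Opposite WRKY53, AT4G23800 averaged 21.9 ± 4.23 FPKM with both treatments, 35.6 ± 13.4 FPKM with valinomycin, 58.4 ± 14.8 FPKM with DC3000 and 59.4 ± 3.53 FPKM in mock. Opposite WRKY2, AT5G56280 averaged 15.0 ± 0.734 FPKM with both treatments, 14.5 ± 2.45 FPKM with valinomycin, 16.6 ± 2.04 FPKM with DC3000 and 8.31 ± 2.47 FPKM in mock, against 4.29 ± 0.791 FPKM with both treatments, 3.96 ± 0.385 FPKM with valinomycin, 3.55 ± 0.0962 FPKM with DC3000 and 2.11 ± 0.527 FPKM in mock for WRKY2, so that both stood higher in the treated groups than in mock. Opposite WRKY69, AT3G58720 averaged 7.34 ± 0.754 FPKM with both treatments, 11.4 ± 0.838 FPKM with valinomycin, 10.8 ± 2.36 FPKM with DC3000 and 7.21 ± 2.32 FPKM in mock, against 6.30 ± 0.767 FPKM with both treatments, 3.71 ± 0.255 FPKM with valinomycin, 7.12 ± 1.25 FPKM with DC3000 and 1.62 ± 0.192 FPKM in mock for WRKY69. The results of these members, and those of WRKY33 and WRKY40 in comparisons that use mock, carry that limit.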

How the data were processed

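Seedling RNA of 12 libraries was extracted with the RNeasy Plant Mini kit and made into libraries with the CORALL total RNA-seq kit, per the labels' protocols. The authors deposited 1 table of normalized values for 20233 genes, read here as FPKM from its values: totals differ between libraries and exceed the fixed total of TPM. The submitters' processing notes name TAIR10 as the build. Aligner, counter and strand setting were not given in the sources used here, and the depth is unknown.

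The deposited FPKM were analysed as log2(FPKM + 1) with limma 3.58.1 (trended eBayes, R 4.3.3) in 1 fit of the 4 group means, with 8 residual degrees of freedom, over the 18048 genes whose mean reached 1 FPKM. P-values were adjusted by Benjamini-Hochberg over all of these. The procedure was checked on simulated data in which few genes differed between the groups. That check does not cover shifts in many genes or in the scale of the libraries. Per-library values are printed for WRKY33, WRKY40 and the 4 called members with the largest rise and fall in each comparison. Of the partner lists, they are printed for VQ12, MPK11, PAD3 and CYP71A13 only. Alternatives were a pseudocount of 0.1, no filter, no trend, median-of-ratios rescaling, the compared groups alone, a replicate block, each library left out and, added after seeing the data, nuclear genes scaled to 1 total. Copies were sought with blastn 2.17.0 against TAIR10.1 transcripts, and W-boxes in the TAIR10.1 genome. The members and gene lists were chosen with earlier results of these data known.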

Additional observations from a re-analysis of the deposited data

Results flagged for a closer look

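In 16 members the effect of valinomycin in bacteria-treated seedlings differed from its effect in mock-treated seedlings, by the interaction term of the limma fit at an adjusted p under 0.05. The interaction is a difference of log2 changes, and it was below 0 in all 16. It was -4.89 for WRKY40, -2.36 for WRKY26, -1.82 for WRKY48, -1.67 for WRKY3, -1.60 for WRKY28, -1.35 for WRKY65, -1.24 for WRKY11, -1.10 for WRKY60. It was -1.02 for WRKY23, -0.99 for WRKY69, -0.99 for WRKY47, -0.95 for WRKY45, -0.89 for WRKY42, -0.80 for WRKY32, -0.80 for WRKY4 and -0.77 for WRKY50. Over all tested genes, it was called below 0 in 19.4% and above 0 in 5.25%. Calls for WRKY4, WRKY11, WRKY28, WRKY45, WRKY47, WRKY50, WRKY60 and WRKY65 were lost in at least 1 alternative setting. With 1 library left out, the limma adjusted p was 0.0587 without DC3000 replicate 2 and 0.0599 without mock replicate 3 for WRKY65. It was 0.0619 without both replicate 3, 0.064 without valinomycin replicate 2 and 0.0511 without mock replicate 3 for WRKY47. For WRKY28 it was 0.0616 to 0.127 without both replicate 1 or 3, valinomycin replicate 1 or 2, DC3000 replicate 1 or 3 or mock replicate 1, 2 or 3. For WRKY4 it was 0.0513 to 0.0594 without both replicate 3, valinomycin replicate 2 or DC3000 replicate 1 or 2, and for WRKY11 0.0543 to 0.0764 without both replicate 1 or 3, valinomycin replicate 1 or 2, DC3000 replicate 2 or mock replicate 3. For WRKY45 it was 0.0761 to 0.103 without both replicate 1 or 3, valinomycin replicate 1 or 2, DC3000 replicate 1 or 2 or mock replicate 1 or 3, for WRKY50 0.0516 to 0.0896 without both replicate 1, 2 or 3, valinomycin replicate 1 or 3, DC3000 replicate 1 or 2 or mock replicate 1 or 3, and for WRKY60 0.0504 to 0.0845 without both replicate 3, valinomycin replicate 2 or 3, DC3000 replicate 1 or 2 or mock replicate 1 or 3.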

How the results depend on the processing

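Of 146 calls of members over the 7 comparisons, 111 were made in every alternative setting in which the member was tested, 35 were lost in at least 1, and 0 reversed. WRKY42 fell below the filter, and was not tested, when the fit held only DC3000 and mock or only both treatments and mock. The lost calls numbered 1 for valinomycin against mock, 5 for DC3000 against mock, 4 for both treatments against mock, 6 for both treatments against DC3000, 5 for both treatments against valinomycin, 6 for valinomycin against DC3000 and 8 for the interaction. Leaving out 1 library gave 31 to 34 called members for valinomycin, 15 to 23 for DC3000 and 26 to 29 for both treatments, each against mock. It gave 15 to 23 for both treatments against DC3000, 2 to 9 for both treatments against valinomycin, 17 to 26 for valinomycin against DC3000 and 9 to 21 for the interaction. The interaction was called in 9 members without both replicate 3 or mock replicate 3, and in 10 without valinomycin replicate 2 or DC3000 replicate 2. For both treatments against valinomycin, 3 members were called when the fit held only the compared groups, 4 without valinomycin replicate 2 and 2 without both replicate 3. Median-of-ratios rescaling, with factors of 0.744 to 1.13, lost 11 calls and left 10 members for the interaction. Scaling nuclear genes to 1 total, chosen after seeing the data, lost 3. The cause of these changes was not tested.

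Replicate numbers did not pair the libraries: the deviations of same-numbered libraries correlated at -0.242 to 0.439, with 3 of 18 pairs over 0.1, and 4 of 12 libraries correlated best with their own number. With the replicate block, 32, 22, 28, 21, 9, 22 and 15 members were called in the comparisons in the order given, and 3 calls were lost. With 3 libraries against 3, an exact permutation test of a single value cannot go below p = 0.1. Since depth is unknown, the counting error behind low values such as those of WRKY44 is unknown too.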
